A study of Mus musculus with 14 samples.

Results

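The genes described here encode the signalling chains of the T cell receptor complex (Cd3d, Cd3e, Cd3g and Cd247), the coreceptor of helper T cells (Cd4), and the constant regions of the γδ T cell receptor (Trdc for the δ chain, Trgc1, Trgc2 and Trgc4 for the γ chain). They were taken by gene symbol, 9 of the 27179 genes in the table, and they were picked with their levels across the 3 groups already known. Their levels and differences are therefore given as a description with no test. The study measured RNA of C57BL/6 mouse CD4 T cells by bulk sequencing: naive CD4 cells were kept in culture for 3.5 days on plate-bound antibodies against CD3 and CD28, which all groups share, and were then sorted into Trizol LS. The Th1 group holds 5 libraries, from the condition labelled Th1. TfhA is a follicular helper T cell (Tfh) culture with an antibody against TGF-β (4 libraries, numbered 1, 2, 4 and 5), and Tfh5 is a Tfh culture with 5 ng/ml TGF-β (5 libraries). No source used here tells if the libraries are separate animals or cultures, so every p-value measures the spread between these libraries, which may be technical. The 3 comparisons share groups with each other.

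A T cell reads antigen through a receptor of paired variable chains, αβ in most T cells and γδ in the others, and neither kind can signal by itself. The receptor is carried to the surface and coupled to the cell's kinases by the CD3 γ, δ and ε chains and the ζ chain, which Cd247 encodes, and whose cytoplasmic tails carry the tyrosine motifs (ITAMs) that the kinase Lck phosphorylates and the kinase Zap70 binds. CD4 binds MHC class II and brings Lck to the complex. Transcripts of the γ and δ constant regions can come from rearranged receptor genes or from loci that have not been rearranged.

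In GENCODE M21 (GRCm38, the mm10 build), Cd3g, Cd3d and Cd3e lie next to each other at chr9:44969572-44980431, chr9:44981786-44987339 and chr9:44998740-45009627. Cd3g and Cd3d are transcribed away from each other, and in RefSeq 1337 bases separate them. Cd247 lies at chr1:165788681-165877277 and Cd4 at chr6:124864692-124888221. Trdc lies at chr14:54142851-54148868, and the γ constant genes lie in 1 locus, Trgc1 at chr13:19214103-19217024, Trgc2 at chr13:19304649-19307551 on the minus strand, and Trgc4 at chr13:19344558-19352756.

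The γ constant genes are near copies, and their sequences show how far reads can tell them apart. The first exon has 330 bases in each. Trgc1 and Trgc2 differ at 9 of them (97.3% identity), whereas Trgc4 differs from Trgc1 at 59 (82.1% identity). Of all 50-base stretches of the GENCODE transcripts, 29.6% for Trgc1 and 25.4% for Trgc2 also occur in another of the genes Trgc1 to Trgc4, and 0.0% for Trgc4. Of 100-base stretches, 3.39% for Trgc1, 0.613% for Trgc2 and 0.0% for Trgc4 do so. Bases 143 to 202 of the first exon, counted from 1 at its 5′ end, are shown from GENCODE M21 on GRCm38, the strand of each gene, with the bases that differ from Trgc1 in capitals.
Trgc1 (chr13:19214245-19214304, plus strand): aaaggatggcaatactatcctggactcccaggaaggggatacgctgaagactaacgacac
Trgc2 (chr13:19307350-19307409, minus strand): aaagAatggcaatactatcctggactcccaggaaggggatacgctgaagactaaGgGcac
Trgc4 (chr13:19344700-19344759, plus strand): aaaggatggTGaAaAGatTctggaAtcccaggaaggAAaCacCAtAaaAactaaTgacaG

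The genes differ, too, in the short exons that encode the connecting stretch between the immunoglobulin domain and the membrane. The second exon of Trgc1 holds a run of 15 bases, in capitals, that the second exon of Trgc2 lacks. The same run is in the second exon of Trgc3, which is not a member and is not printed. Trgc4 has other sequence in its exons 2 and 3. These exons are printed because the members differ there as well as in the first exon.
Trgc1 exon 2 (chr13:19215864-19215908): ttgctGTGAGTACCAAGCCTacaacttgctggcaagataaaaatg
Trgc2 exon 2 (chr13:19305769-19305798): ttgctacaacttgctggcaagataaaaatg
Trgc4 exon 2 (chr13:19349536-19349589): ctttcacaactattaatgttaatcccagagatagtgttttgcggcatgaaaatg
Trgc4 exon 3 (chr13:19350330-19350374): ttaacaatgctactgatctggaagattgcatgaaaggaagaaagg

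The treatment of multi-mapping reads is not stated in any source used here, so the split of counts between Trgc1 and Trgc2 is uncertain, less so for Trgc4. In GENCODE the last exon of Trdc overlaps the δ variable segment Trdv5 on the opposite strand. In RefSeq it does not, since Trdc ends at chr14:54146108 and Trdv5 starts at chr14:54148662. Without the annotation and strand setting behind the counts, it is not known if reads of that overlap were told apart.

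Depth ran from 8805921 counts (TfhA replicate 4) to 16108059 counts (Th1 replicate 1). Levels are CPM, the counts of a gene per 1000000 counts of its library, after TMM scaling, which allows for differences in RNA composition. Trac, Trbc1 and Trbc2, which encode the αβ receptor's constant regions, were detected in every library, as was Cd4, at 358.0 to 571.7 CPM. Of the CD8 genes, Cd8a had 0 to 32 counts a library, and the summed CPM of Cd8a and Cd8b1 ran from 8.26 to 34.0. The numbers of genes whose library ranges do not overlap are given beside the share over all 13075 genes that passed the filter on low counts. All 9 genes passed it, Trgc2 and Trgc4 only through TfhA, where they are high.

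Between TfhA and Th1, 6 of the 9 genes were higher in every TfhA library than in any Th1 library (Cd3d, Cd3g, Trdc, Trgc1, Trgc2 and Trgc4), 1 was lower (Cd4), and 2 overlapped (Cd3e and Cd247). Over all genes, 38.1% did not overlap in that comparison. Between Tfh5 and TfhA, 3 were higher in Tfh5 (Cd3d, Cd3e and Cd4), 3 lower (Trdc, Trgc2 and Trgc4) and 3 overlapped (Cd3g, Cd247 and Trgc1), where 44.2% of all genes did not overlap. Between Tfh5 and Th1, 5 were higher (Cd3d, Cd3e, Cd3g, Cd4 and Trgc1), 0 lower and 4 overlapped, where 50.2% of all genes did not overlap. Because the genes were chosen on these levels, nothing is read from these counts.

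**Figure D1:**
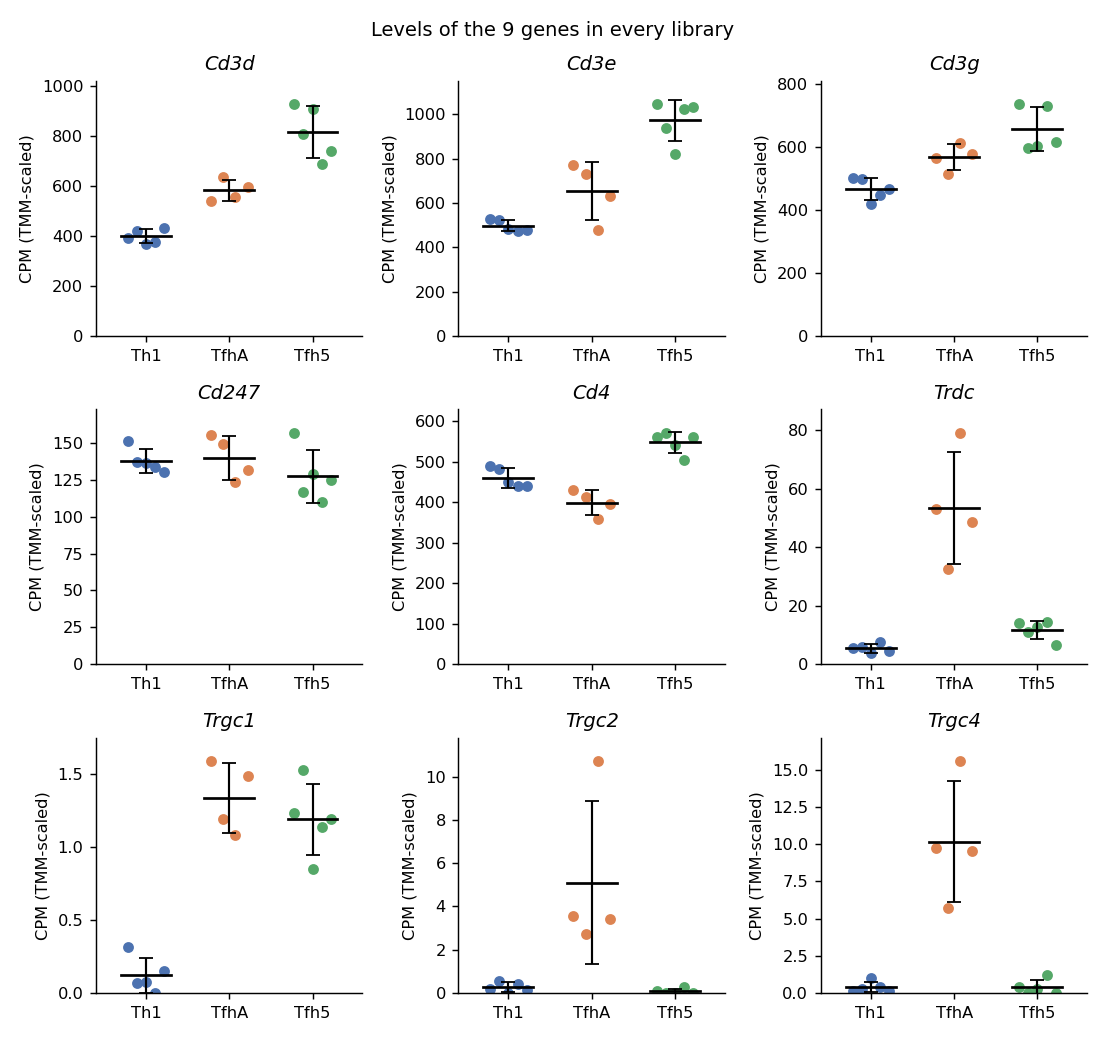
CPM (y axis, linear, from 0, a separate scale for each gene) in the 5 Th1, 4 TfhA and 5 Tfh5 libraries. Points are libraries in replicate order, and black lines are the mean ± SD. Cd3d, Cd3e and Cd3g step up from Th1 to Tfh5, Cd247 overlaps in all groups, and Trdc, Trgc2 and Trgc4 are high in TfhA, where replicate 4 is the highest at 79.3, 10.7 and 15.6 CPM.

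Cd3d, which encodes the CD3 δ chain, was lowest in Th1 and highest in Tfh5. In Th1 it was at 392.3, 421.4, 368.3, 377.3 and 433.7 CPM (398.6 ± 28.1, SD, n = 5). In TfhA it was at 541.9, 634.5, 555.3 and 596.3 CPM (582.0 ± 42.0, n = 4), and in Tfh5 at 927.2, 808.0, 909.9, 686.6 and 740.8 CPM (814.5 ± 104.4, n = 5). No library of a group reached the range of another group. The log2 fold change was 0.55 ± 0.10 (SE of the fit) for TfhA over Th1, 0.48 ± 0.10 for Tfh5 over TfhA and 1.03 ± 0.09, or 2.04-fold, for Tfh5 over Th1.

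Cd3e, which encodes the ε chain that pairs with both the γ and the δ chain, had the same order of group means with more spread in TfhA. It was at 529.7, 523.7, 483.4, 474.7 and 480.5 CPM in Th1 (498.4 ± 26.1). The TfhA libraries were at 771.4, 732.4, 477.0 and 631.1 CPM (653.0 ± 131.4), and the Tfh5 libraries at 1046, 936.5, 822.2, 1025 and 1033 CPM (972.4 ± 94.4). TfhA replicate 4, at 477.0 CPM, was within the Th1 range, and the other 3 TfhA libraries were above it; all Tfh5 libraries were above all others. The log2 fold change was 0.39 ± 0.11 for TfhA over Th1, 0.51 ± 0.10 without TfhA replicate 4, 0.57 ± 0.11 for Tfh5 over TfhA and 0.96 ± 0.11 for Tfh5 over Th1.

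Cd3g, which encodes the CD3 γ chain, differed less. Its levels were 502.8, 498.8, 419.1, 448.8 and 466.4 CPM in Th1 (467.2 ± 35.1). In TfhA they were 565.6, 515.6, 614.2 and 578.9 CPM (568.6 ± 40.8), and in Tfh5 736.5, 598.7, 605.1, 729.9 and 614.9 CPM (657.0 ± 69.8). Every TfhA and Tfh5 library was above every Th1 library, while TfhA and Tfh5 overlapped between 598.7 and 614.2 CPM. The log2 fold changes were 0.28 ± 0.09 for TfhA over Th1, 0.21 ± 0.09 for Tfh5 over TfhA and 0.49 ± 0.09 for Tfh5 over Th1.

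Cd247, which encodes the ζ chain, stood apart from the other CD3 genes in having overlapping groups throughout. It was at 150.8, 136.7, 136.4, 133.6 and 130.4 CPM in Th1 (137.6 ± 7.82). It was at 154.8, 149.2, 123.1 and 131.5 CPM in TfhA (139.6 ± 14.8) and at 156.7, 116.3, 128.7, 109.9 and 124.6 CPM in Tfh5 (127.2 ± 18.02). The highest library of all was Tfh5 replicate 1 and the lowest Tfh5 replicate 4. The log2 fold change was 0.02 ± 0.10 for TfhA over Th1, -0.14 ± 0.10 for Tfh5 over TfhA and -0.11 ± 0.10 for Tfh5 over Th1.

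**Figure D2:**
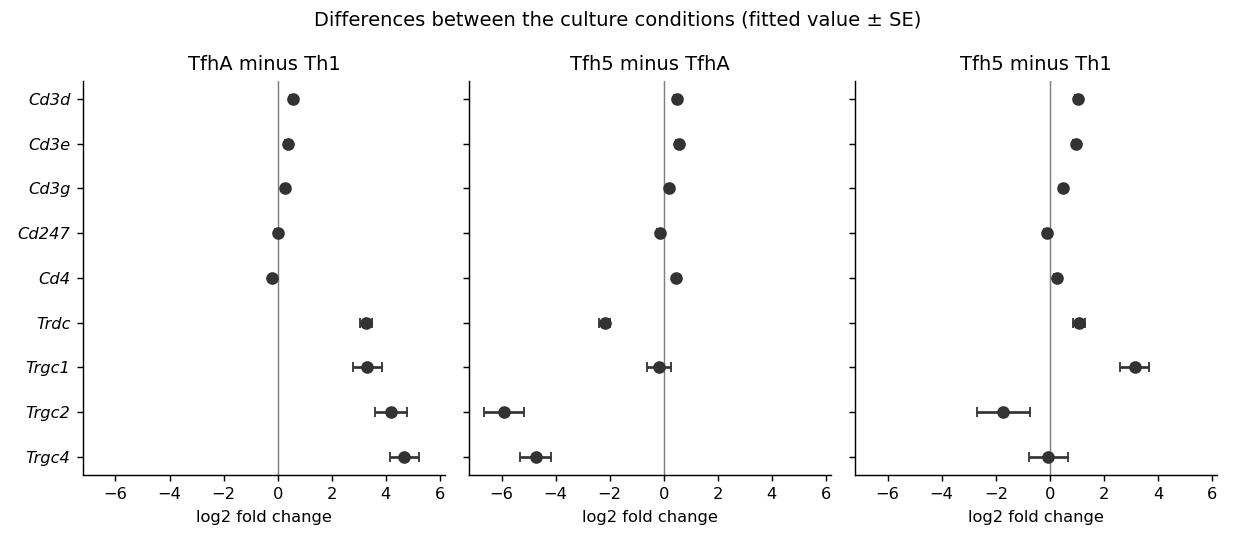
Fitted log2 fold change (x axis) of the 9 genes (y axis) in the 3 comparisons, with bars of ± 1 SE of the edgeR fit over 14 libraries. Points right of 0 are higher in the group named first. The CD3 chains and Cd4 lie between -0.20 and 1.03, and the γδ constant genes reach 4.69 in TfhA over Th1 and -5.92 in Tfh5 over TfhA.

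Ratios of counts within a library do not depend on how libraries were scaled. Cd247 held 9.17% ± 0.50 of the counts of the 4 CD3 genes in Th1, 7.17% ± 0.37 in TfhA and 4.94% ± 0.45 in Tfh5, and the libraries of the 3 groups did not overlap (8.63% to 9.69%, 6.79% to 7.61% and 4.31% to 5.47%). The Cd3e share was 33.2% ± 0.93 in Th1, 33.4% ± 4.82 in TfhA and 37.8% ± 3.09 in Tfh5, and the Cd3g share was 31.1% ± 0.82, 29.4% ± 3.96 and 25.5% ± 1.81. For each Cd3g count there were 0.855 ± 0.055 Cd3d counts in Th1, 1.03 ± 0.14 in TfhA and 1.25 ± 0.21 in Tfh5. TfhA overlapped both other groups, while Th1 (at most 0.930) and Tfh5 (at least 0.941) did not overlap. The 4 genes together made up 0.148% ± 0.008 of the library in Th1, 0.198% ± 0.011 in TfhA and 0.257% ± 0.017 in Tfh5. Against Trac, the α constant gene, they were lower in Tfh5, with 1.85 ± 0.09 CD3 counts for each Trac count in Th1, 1.70 ± 0.15 in TfhA and 1.29 ± 0.10 in Tfh5. All Tfh5 libraries were at or under 1.42, and all others at or over 1.57.

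**Figure D3:**
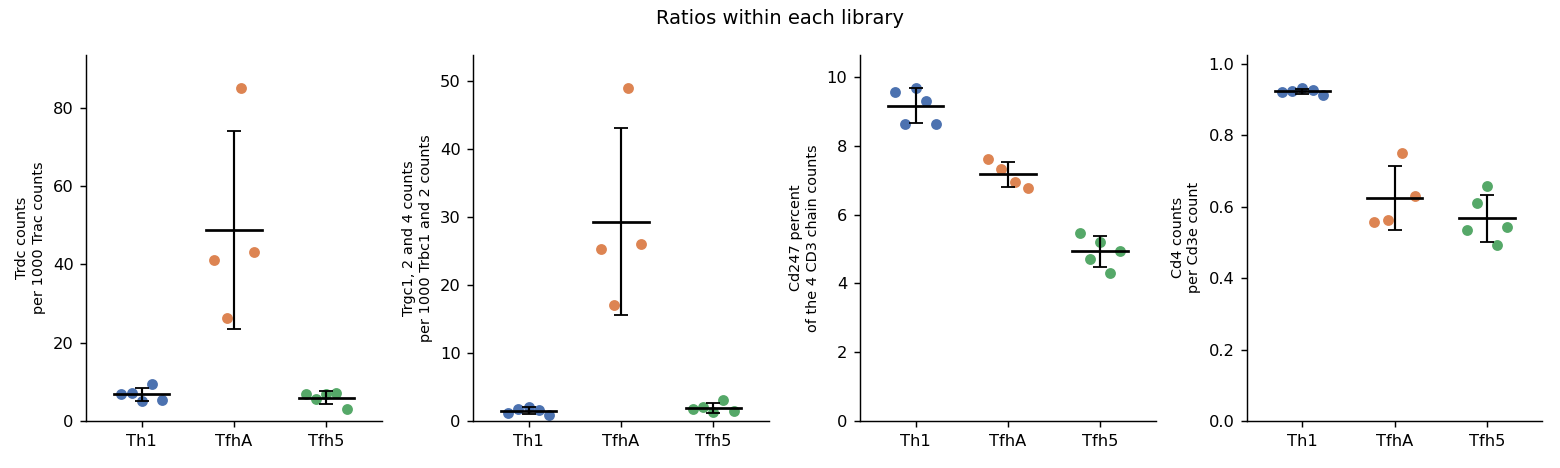
Ratios of counts within each library (y axes, linear, from 0) by group: Trdc per 1000 Trac counts, the sum of Trgc1, Trgc2 and Trgc4 per 1000 counts of Trbc1 and Trbc2, the percentage of CD3 chain counts that are Cd247, and Cd4 per Cd3e count. Points are libraries, lines the mean ± SD. The first and second ratios are higher in every TfhA library than in any other, and the Cd247 shares of the 3 groups do not overlap.

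Cd4 had another order than the CD3 chains, with TfhA the lowest. It was at 488.3, 483.2, 450.9, 439.5 and 439.1 CPM in Th1 (460.2 ± 23.9). It was at 429.4, 412.4, 358.0 and 397.0 CPM in TfhA (399.2 ± 30.5) and at 560.0, 571.7, 540.8, 504.3 and 560.7 CPM in Tfh5 (547.5 ± 26.6). The 3 ranges did not overlap. The log2 fold change was -0.20 ± 0.08 for TfhA over Th1, 0.46 ± 0.08 for Tfh5 over TfhA and 0.25 ± 0.08 for Tfh5 over Th1. For each Cd3e count there were 0.923 ± 0.007 Cd4 counts in Th1, where the 5 libraries ran from 0.914 to 0.933, against 0.625 ± 0.090 in TfhA and 0.568 ± 0.066 in Tfh5, which overlapped each other.

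Per kilobase of exon, taken as the union of GENCODE exons, Cd3d had the highest level of the set in each group (220 ± 15.5 CPM per kb in Th1, 321 ± 23.1 in TfhA and 449 ± 57.5 in Tfh5). In Th1 it was followed by Cd3g (143 ± 10.7), Cd3e (122 ± 6.40), Cd4 (114 ± 5.93), Cd247 (25.8 ± 1.47), Trdc (1.43 ± 0.38), Trgc4 (0.397 ± 0.356), Trgc2 (0.287 ± 0.242) and Trgc1 (0.132 ± 0.129). Cd3g and Cd3e, Cd3e and Cd4, and the 3 γ constant genes overlapped with their neighbours in that order. In TfhA the order was the same, with overlap between Cd3g and Cd3e, between Trdc and Trgc4 and between Trgc4 and Trgc2. In Tfh5 Cd3e (238 ± 23.1) and Cd3g (201 ± 21.4) overlapped and Trgc1 (1.29 ± 0.26) came before Trgc4 (0.385 ± 0.515), with overlap. The first 3 places depend on the length used: with the longest coding transcript, an alternative added after the data were seen, Cd3g came first in Th1 and TfhA (457 ± 34.3 and 556 ± 39.9 CPM per kb) and Cd3e in Tfh5 (665 ± 64.6), and Cd3d came after both in all 3 groups.

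The promoters of the CD3 genes are shown because Cd3d, Cd3e and Cd3g had the same order of group means and Cd247 did not. RefSeq's promoter table (GRCm38.p6) has entries for 4 of the 9 genes. Bases before the start used there are printed 5′ to 3′ on the gene's strand, without those that a longer RefSeq model of Cd3d or Cd3e places inside the gene; for Cd247 a RefSeq model starts before the whole window. Matches to an ETS-type motif, GGAAGT or its reverse complement, are in capitals.
Cd3d (chr9:44981536-44981768, plus strand): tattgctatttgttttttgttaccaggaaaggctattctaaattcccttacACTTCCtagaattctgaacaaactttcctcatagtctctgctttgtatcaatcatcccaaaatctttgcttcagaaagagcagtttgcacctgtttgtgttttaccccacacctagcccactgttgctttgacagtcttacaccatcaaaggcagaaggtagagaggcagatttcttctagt
Cd3e (chr9:45009664-45009861, minus strand): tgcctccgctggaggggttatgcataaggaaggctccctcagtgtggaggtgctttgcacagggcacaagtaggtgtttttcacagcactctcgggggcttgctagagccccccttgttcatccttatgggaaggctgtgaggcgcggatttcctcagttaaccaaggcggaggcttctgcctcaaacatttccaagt
Cd3g (chr9:44980432-44980681, minus strand): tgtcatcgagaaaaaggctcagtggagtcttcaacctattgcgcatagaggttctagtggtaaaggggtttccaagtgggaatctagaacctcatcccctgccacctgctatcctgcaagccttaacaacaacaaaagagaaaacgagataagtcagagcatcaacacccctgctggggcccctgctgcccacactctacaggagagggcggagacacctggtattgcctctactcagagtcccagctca
Cd247 (chr1:165788431-165788680, plus strand): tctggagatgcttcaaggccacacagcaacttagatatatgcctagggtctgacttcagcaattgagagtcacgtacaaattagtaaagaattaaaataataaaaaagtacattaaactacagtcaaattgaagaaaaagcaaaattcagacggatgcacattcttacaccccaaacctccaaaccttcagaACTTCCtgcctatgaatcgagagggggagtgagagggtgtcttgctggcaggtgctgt

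In the full 250 bases, searched on both strands, GGAAGT had 1 match each in Cd3d, Cd3e (in the part not printed) and Cd247 and 0 in Cd3g, and 19.74% of 32851 promoters of the table hold it. The E box CANNTG was in all 4 windows, as in 66.22% of promoters. The letters TGTGGT of a RUNX-type motif (14.05% of promoters) and CAGACA, the CAGA box that SMAD proteins can bind (17.13%), were in 0 of the 4 windows. No overlap between motifs was removed. These are letter matches in short windows, and nothing about the factors follows from them.

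Trdc, the only δ constant gene, was far higher in TfhA. It was at 5.49, 5.89, 4.01, 7.84 and 4.49 CPM in Th1 (5.54 ± 1.49), from 53 to 113 counts a library. In TfhA it was at 53.2, 32.8, 79.3 and 48.7 CPM (53.5 ± 19.3), from 384 to 732 counts, and in Tfh5 at 14.1, 11.0, 12.6, 14.4 and 6.58 CPM (11.8 ± 3.19), from 88 to 152 counts. The lowest TfhA library was above every library of the other groups, and Th1 and Tfh5 overlapped through Th1 replicate 4 and Tfh5 replicate 5. TfhA was 9.58-fold higher than Th1 (log2 fold change 3.26 ± 0.23) and 4.56-fold higher than Tfh5 (log2 fold change of Tfh5 over TfhA -2.19 ± 0.22), and without TfhA replicate 4 these were 8.06-fold and 3.84-fold. Tfh5 was 1.07 ± 0.23 log2 units above Th1. In bulk RNA, a larger number of cells with a transcript and more of it per cell cannot be told apart.

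Against the α constant gene of the same library, Tfh5 was no longer above Th1. There were 6.80 ± 1.70 Trdc counts per 1000 Trac counts in Th1 and 5.96 ± 1.73 in Tfh5, and 41.0, 26.2, 85.1 and 43.2 in the 4 TfhA libraries (48.9 ± 25.3). Against the β constant genes there were 1.51 ± 0.47 counts of Trgc1, Trgc2 and Trgc4 per 1000 of Trbc1 and Trbc2 in Th1, 29.3 ± 13.8 in TfhA and 1.93 ± 0.70 in Tfh5, and Th1 and Tfh5 overlapped. TfhA replicate 4 was the highest in both ratios, at 85.1 and 49.0, and all TfhA libraries were above all others.

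Trgc4 was the most counted γ constant gene in TfhA. Its counts were 2, 4, 13, 6 and 2 in Th1, 129, 67, 144 and 90 in TfhA, and 4, 0, 3, 13 and 0 in Tfh5. In CPM these were 0.391 ± 0.351, 10.2 ± 4.07 and 0.380 ± 0.507, with no overlap between TfhA and the others. The fitted TfhA level was 25.8-fold that of Th1 (log2 fold change 4.69 ± 0.54) and 26.7-fold that of Tfh5 (-4.74 ± 0.56 for Tfh5 over TfhA). Single libraries with few counts set the size: without Th1 replicate 3 the first became 40.1-fold, and without Tfh5 replicate 4 the second became 59.5-fold. Tfh5 over Th1 was -0.05 ± 0.72, 0.59 without Th1 replicate 3 and -1.21 without Tfh5 replicate 4, so that it has no set direction.

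Trgc2 had the same pattern. Its counts were 3, 8, 0, 6 and 2 in Th1, 47, 32, 99 and 32 in TfhA, and 1, 0, 0, 3 and 0 in Tfh5, or 0.262 ± 0.221, 5.10 ± 3.76 and 0.076 ± 0.124 CPM. TfhA was above both other groups in every library, and replicate 4, at 10.7 CPM, was well above the other 3 (2.73 to 3.56 CPM). The fitted difference was 18.4-fold over Th1 (4.2 ± 0.59) and 60.6-fold over Tfh5 (-5.92 ± 0.74 for Tfh5 over TfhA). Without TfhA replicate 4 these were 11.8-fold and 38.8-fold, and without Tfh5 replicate 4 the second was 154-fold. Tfh5 over Th1 was -1.72 ± 0.97, with overlap, and -3.07 without Tfh5 replicate 4.

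Trgc1 did not follow the other γ constant genes in Tfh5. Its counts were 5, 1, 1, 0 and 2 in Th1, 21, 14, 10 and 14 in TfhA, and 13, 15, 9, 12 and 16 in Tfh5, or 0.122 ± 0.119, 1.34 ± 0.24 and 1.19 ± 0.24 CPM. TfhA and Tfh5 overlapped, and both were above Th1 in every library. The fitted difference from Th1 was 3.32 ± 0.55 log2 units for TfhA and 3.14 ± 0.54 for Tfh5 (9.98-fold and 8.83-fold), and 16.2-fold and 14.4-fold without Th1 replicate 1, which held 5 of the 9 Th1 counts. Tfh5 over TfhA was -0.18 ± 0.43.

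Pooled over libraries, Trgc1 had most of the γ constant counts in Tfh5 and the fewest in Th1 and TfhA. Of the pooled counts of the 3 genes, Trgc1 held 16.4% in Th1 (9 of 55, exact 95% Clopper-Pearson interval 7.77% to 28.8%), 8.44% in TfhA (59 of 699, 6.49% to 10.8%) and 73.0% in Tfh5 (65 of 89, 62.6% to 81.9%). Trgc4 held 49.1%, 61.5% and 22.5%, and Trgc2 34.5%, 30.0% and 4.49%. By library, the Trgc1 share ran from 3.95% to 12.4% in TfhA and from 42.9% to 100.0% in Tfh5, which do not overlap. The Th1 libraries overlapped both, since replicate 1 held 5 Trgc1 counts of 10 and another library held 0. Without replicate 1, an alternative chosen after the data were seen, the pooled Th1 share was 8.89% (4 of 45, 2.48% to 21.2%). These intervals cover counting error only, and the split between Trgc1 and Trgc2 carries the uncertainty of shared reads described above.

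The variable and joining segments of the γ locus were counted too, and, apart from Trgv2, those named here were chosen after their values were seen. Along the locus Trgv7, Trgv4, Trgv6, Trgv5 and Trgj1 lie before Trgc1, Trgv2 and Trgj2 lie beside Trgc2, and Trgv1 and Trgj4 before Trgc4. Trgv2 had 4, 7, 6, 10 and 1 counts in Th1, 142, 66, 151 and 87 in TfhA, and 1 count in all Tfh5 libraries together. It passed the filter on low counts only through TfhA, so no test is given. The ratio of TfhA to Th1 was 26.0 with a 95% counting interval of 17.8 to 39.6. The ratio of TfhA to Tfh5 was 561.1 with an interval of 100.2 to 22210. Both intervals pool the counts of a group and leave out the spread between libraries.

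Trgv1 had 13, 18, 40 and 8 counts in TfhA, 0 in all Th1 libraries and 3 in 1 Tfh5 library. It was at least 43.0-fold higher in TfhA than in Th1 taking 3 counts in all of Th1 as the floor. It was 33.1 times Tfh5, with a counting interval of 10.9 to 164.1 that also leaves out the spread between libraries. Trgv4 had 29, 17, 14 and 30 counts in TfhA, 10 in Th1 (8 of them in replicate 4) and 2 in Tfh5. Over the 7 γ variable segments the sums were 40 counts in Th1, 644 in TfhA and 17 in Tfh5, and over the 3 joining segments 17, 64 and 0. Of the segments before Trgc1, Tfh5 had 2 counts of Trgv4, 7 of Trgv6, 4 of Trgv7, 0 of Trgv5 and 0 of Trgj1, beside 65 of Trgc1, and TfhA had 90, 1, 2, 0 and 8, beside 59. The 5 δ variable segments with a Trdv symbol summed to 51, 116 and 63 counts, of which Trdv5 held 24, 78 and 22. These sums are far below the 398, 2277 and 630 counts of Trdc, but variable segments under other symbols were not summed. Trdd1 and Trdd2, the δ diversity segments, were at 0 in all libraries. They are so short (chr14:54113468-54113476 and chr14:54122226-54122241) that this says little.

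**Figure D4:**
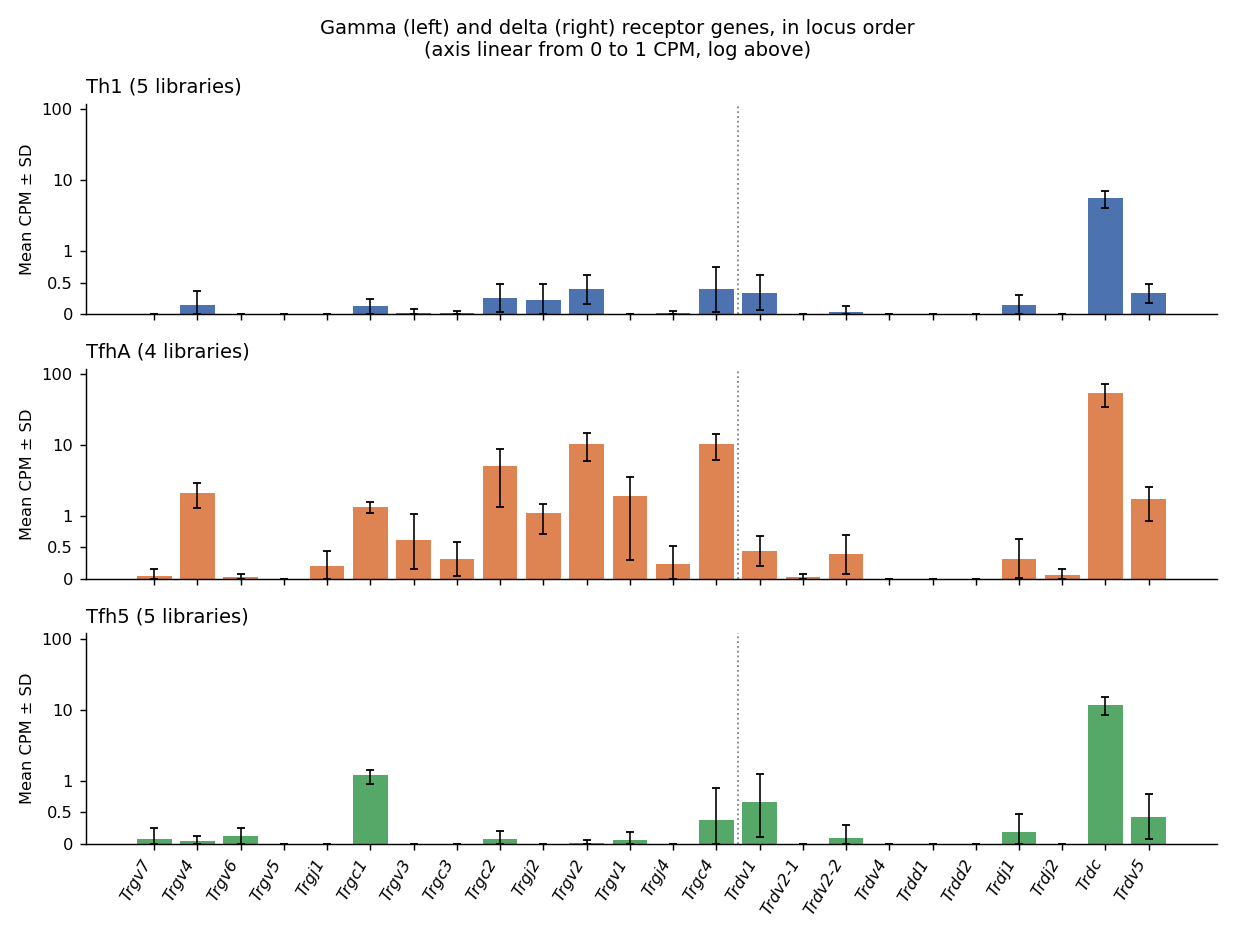
Mean CPM ± SD (y axis, linear from 0 to 1 and logarithmic above, lower bars cut at 0) of the γ receptor genes (left of the dotted line) and δ receptor genes (right), in the order of their loci, in Th1, TfhA and Tfh5. TfhA shows Trgv4, Trgc1, Trgc2, Trgj2, Trgv2, Trgv1, Trgc4, Trdc and Trdv5 above 1 CPM, whereas in Tfh5 only Trgc1 and Trdc exceed that level and in Th1 only Trdc does.

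The list of γδ markers holds 26 genes of the table, mostly receptor segments, of which 5 passed the filter on low counts. The 4 receptor segments among these, Trgv1, Trgv2, Trgv4 and Trdv5, passed it only through TfhA, so no count of calls is given for the list. Its summed level was 68.8 to 76.9 CPM in Th1, between 18.9 and 36.1 in TfhA, and 4.44 to 6.83 in Tfh5. The Th1 sum was nearly all Etv5, an ETS factor at 69.4 ± 2.80 CPM in Th1 against 4.49 ± 0.69 in TfhA (log2 fold change -3.94 ± 0.17, adjusted p = 2.77e-15). Sox13, Blk, Cd163l1, 5830411N06Rik and Zbtb16 together had 5 to 15 counts a library in Th1, between 19 and 28 in TfhA, and 4 to 14 in Tfh5. Singly they did not move together. Over Th1, TfhA and Tfh5, Cd163l1 had 2, 22 and 1 counts and 5830411N06Rik 0, 54 and 10, highest in TfhA. Sox13 had 35, 8 and 1, highest in Th1, Blk 3, 7 and 16, highest in Tfh5, and Zbtb16 14, 0 and 10. Cd8a had 23, 32, 27 and 5 counts in the TfhA libraries. It had 7, 12, 7, 8 and 0 in Th1 and 2, 0, 0, 0 and 0 in Tfh5. Cd8b1, the more counted CD8 gene, went the other way, with its lowest mean in TfhA. It was at 17.75 ± 8.70, 10.73 ± 6.04 and 12.89 ± 4.89 CPM in Th1, TfhA and Tfh5, with overlap. The part of CD8 T cells in the result was not tested, nor was that of γδ T cells.

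Markers of further cell types differed between the groups as well. The B cell list of 6 genes summed to 25.6 to 33.8 CPM in Th1, between 18.1 and 28.3 in TfhA, and 0.971 to 2.09 in Tfh5, mostly Ebf1 in Th1 and TfhA. Named after their values were seen, Ms4a1 was at 0.0139, 1.51 and 0.0190 CPM in Th1, TfhA and Tfh5 and Cd79b at 0.215, 1.45 and 0.310, both highest in TfhA. The monocyte, macrophage and dendritic list of 7 genes summed to 237 to 300 CPM in Th1, between 63.7 and 121 in TfhA, and 9.89 to 14.2 in Tfh5, mostly Cd74, with Lyz2 at 0 in TfhA and Tfh5 and Itgax at 0 in Th1. Again after their values were seen, H2-Aa (0.361, 6.99 and 0.0 CPM) and Itgam (0.1496, 2.02 and 0.865 CPM) went against that sum. Both were highest in TfhA, as Trdc, Trgc2 and Trgc4 were. H2-Ab1 (75.87, 25.65 and 3.93 CPM), like Cd74 (174.9, 60.5 and 6.84 CPM), followed the sum and was highest in Th1. The NK cell and innate lymphoid list of 7 genes summed to 45.8 to 68.3 CPM in Th1, between 42.9 and 87.0 in TfhA, and up to 102 in Tfh5, with Ncr1 at 0 throughout. Its most counted gene was Klrk1 in Th1 (40.9 ± 6.28 CPM) and Klrd1 in TfhA (40.3 ± 11.2) and Tfh5 (73.4 ± 17.9). The granulocyte and mast cell list of 5 genes summed to 120 to 178 CPM in Th1, between 22.7 and 30.8 in TfhA, and 52.7 to 120 in Tfh5, mostly Ly6g, with Cpa3 at 0 throughout. The thymocyte list of 4 genes summed to 0.756 to 2.06 CPM in Th1, between 1.45 and 2.73 in TfhA, and 3.96 to 16.9 in Tfh5. This was mostly Dntt, at 1.47 ± 0.49, 1.98 ± 0.57 and 10.01 ± 4.605 CPM, with Rag2 and Ptcra at 0. The red cell and platelet list of 3 genes had 1 count in all. The part of these cells in the levels above was not tested.

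The rest of the receptor's machinery was described with a list of 52 genes, of which 51 passed the filter. Syk (0.504, 3.66 and 0.295 CPM in Th1, TfhA and Tfh5) passed it only through TfhA. It is in the counts below, as higher in TfhA over Th1 and lower in Tfh5 over TfhA. It covers the αβ constant genes, coreceptors, kinases, adaptors and inhibitors, and it was written with results of these data known. In TfhA over Th1, 29 rose, 10 fell and 12 did not pass, with a median log2 fold change of 0.34 against 0.03 over all genes, of which 23.2% rose and 21.6% fell (44.8% together). In Tfh5 over TfhA, 26 rose, 12 fell and 13 did not pass (median 0.30 against -0.01), where 27.4% of all genes rose and 30.1% fell (57.5% together). In Tfh5 over Th1, 34 rose, 11 fell and 6 did not pass (median 0.66 against -0.01), where 31.5% of all genes rose and 33.0% fell (64.6% together).

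The αβ receptor's constant genes rose in Tfh5. Trac was at 811.9 ± 24.4 CPM in Th1, 1152 ± 163 in TfhA and 1993 ± 120 in Tfh5, a rise of 0.50 ± 0.09 log2 units in TfhA over Th1 (adjusted p = 0.000105) and of 0.79 ± 0.10 in Tfh5 over TfhA (adjusted p = 1.27e-07). Trbc1 and Trbc2, also near copies of each other, rose by 0.69 ± 0.11 and 0.56 ± 0.09 in Tfh5 over TfhA (adjusted p = 5.35e-06 and 1.28e-05). In TfhA over Th1, Trbc2 did not pass (0.11 ± 0.09, adjusted p = 0.361), and Trbc1 passed narrowly (0.26 ± 0.11, adjusted p = 0.0451, with 0.0171 to 0.157 over the alternatives). Among the proximal kinases, Zap70 was at 208.7 ± 28.3 CPM in Th1, 197.9 ± 25.1 in TfhA and 401.2 ± 34.3 in Tfh5, and it rose 2.03-fold in Tfh5 over TfhA (adjusted p = 1.43e-08), as Lck did 1.27-fold (adjusted p = 0.00273) and Fyn 1.26-fold (adjusted p = 0.0023).

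The adaptor Lat, which Zap70 phosphorylates, rose in both steps, by 0.72 ± 0.10 log2 units in TfhA over Th1 and 0.64 ± 0.10 in Tfh5 over TfhA (adjusted p = 2.24e-06 and 5.66e-06). Txk and Tec encode TEC family kinases, which act on phospholipase C downstream of the receptor. Txk rose from 2.65 ± 0.75 to 23.0 ± 2.87 and 54.0 ± 6.21 CPM (adjusted p = 1.64e-13 and 6.9e-08), and Tec fell from 12.4 ± 1.13 to 3.52 ± 0.59 CPM in TfhA and was at 54.3 ± 3.62 in Tfh5, 15.5-fold higher (adjusted p = 2.71e-10 and 3.87e-17).

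Adaptors tied to the complex moved in both directions. Themis, an adaptor needed in thymocyte selection, was at 807.2 ± 127.7 CPM in Th1 and fell in TfhA (440.1 ± 94.95) and further in Tfh5 (69.8 ± 6.196) (adjusted p = 7.32e-06 and 1.88e-14). Trat1, which encodes the receptor-associated protein TRIM, rose 2.92-fold in TfhA over Th1 (adjusted p = 1.45e-05) and fell 12.9-fold in Tfh5 (adjusted p = 8.13e-11), and Tespa1, known from thymocyte development, likewise rose 5.55-fold and fell 2.81-fold (adjusted p = 1.7e-12 and 3.18e-09). Sh2d2a, which encodes the Lck-binding adaptor TSAd, did not pass in TfhA over Th1 (adjusted p = 0.828) and rose 3.57-fold in Tfh5 over TfhA (adjusted p = 8.12e-12). Cd28, the costimulatory receptor bound by the culture antibody, did not pass in TfhA over Th1 (adjusted p = 0.931) and rose 1.35-fold in Tfh5 over TfhA (adjusted p = 0.000483). Ptprc, the phosphatase CD45, rose 1.64-fold in TfhA over Th1 (adjusted p = 5.79e-06), and its rise of 1.2-fold in Tfh5 over TfhA was close to the threshold (adjusted p = 0.0415, with 0.0064 to 0.124 over the alternatives).

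**Figure D5:**
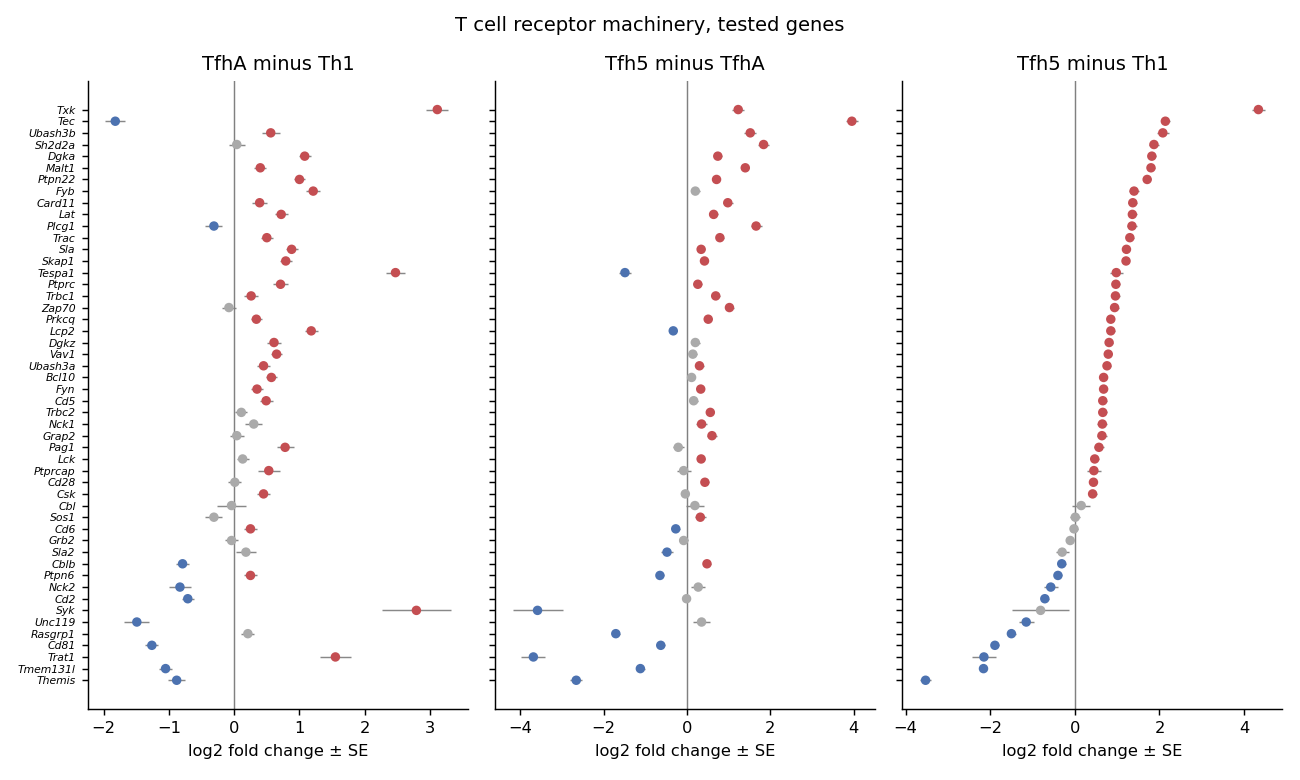
Fitted log2 fold change ± SE (x axis) of tested genes of the receptor machinery list, ordered by Tfh5 minus Th1 (y axis). Red points passed as higher and blue as lower at an adjusted p under 0.05, and grey points did not pass. In Tfh5 minus Th1, 34 genes are red, with Txk at the top and Themis at the bottom.

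Transcription factors and signals known to act at receptor gene loci formed a list of 24 genes, of which 23 passed the filter. In TfhA over Th1, 13 rose, 6 fell and 4 did not pass (median log2 fold change 0.29 against 0.03 over all genes, of which 23.2% rose and 21.6% fell). In Tfh5 over TfhA it was 12, 6 and 5 (median 0.30 against -0.01, with 27.4% of all genes rising and 30.1% falling), and in Tfh5 over Th1 15, 6 and 2 (median 0.50 against -0.01, with 31.5% and 33.0%). Tcf7, which encodes the T cell factor TCF-1, was at 123.5 ± 17.7 CPM in Th1 and rose in TfhA (658.2 ± 117.2) and again in Tfh5 (2080 ± 136) (adjusted p = 2.43e-14 and 1.25e-11). Runx3, which represses Cd4 in CD8 T cells, fell from 320.7 ± 43.3 to 102.5 ± 12.2 and 58.4 ± 4.81 CPM (adjusted p = 8.36e-12 and 4.62e-07). Ikzf3, which encodes the zinc finger factor Aiolos, was at 34.1 ± 2.02 CPM in TfhA and 655.3 ± 109.9 in Tfh5, a 19.2-fold rise (adjusted p = 2.56e-18), while its rise of 1.25-fold in TfhA over Th1 passed narrowly (adjusted p = 0.0391, with 0.00938 to 0.115 over the alternatives).

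Genes whose log2 CPM followed a member most closely over the 14 libraries are given as a description, since all points share libraries and the 3 groups make up most of the spread. Cd3d was closest to Tnfrsf26 and Me2 (Pearson r = 0.978 for both) and Dgka, a diacylglycerol kinase (0.975). Cd3e was closest to Trac (0.975), Tmc8 (0.972) and Cpt1a (0.969), and Cd3g to Hsd17b4 (0.961), Ccm2 (0.926) and Jakmip1 (0.923). Cd4 was closest to Tbc1d20 (0.970), Fam3a (0.967) and Mcoln1 (0.966), and Cd247 had no close match, with Eaf1 at 0.823, Ubac1 at 0.821 and Nudt3 at 0.788. Trdc was closest to Ifi209 (0.944), the T cell factor Gata3 (0.940) and Eif1ad (0.933), and Trgc4 to Samd9l (0.945), Plekha8 (0.938) and Usp37 (0.937).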

How the data were processed

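Bulk RNA sequencing of 14 libraries in 3 groups was analysed. Libraries were made from 100 ng RNA with the Lexogen SENSE mRNA kit, per the labels' protocols. The authors deposited whole-number counts for each gene, not normalized. Tools named in the submitters' processing notes are STAR 2.7.2b and featureCounts 1.6.4, with mm10 as the build. Annotation, strand setting and treatment of multi-mapping reads: not given in the sources used here. All 14 single files matched the series table exactly.

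Counts of all libraries entered 1 edgeR fit (R 4.3.3, edgeR 4.0.16, limma 3.58.1) with filterByExpr, TMM scaling, no covariate and the two-sided quasi-likelihood F test, on 13075 genes, with calls made below an adjusted p of 0.05 by Benjamini-Hochberg across those genes. The procedure was tested on simulated data. Replicates differed by more than counting error (chi-square per degree of freedom 4.3 to 32.63 over 26 pairs), and the common biological coefficient of variation was 14.25%. Likeness used log2 CPM with a prior count of 2. The members, lists and rules were chosen with earlier results of these data known. Genes named from the lists are 10 fixed ones and, per comparison, the 3 highest and 3 lowest called ones that reach 10 CPM in the higher group. A gene of that rule is not reported here. Alternatives were relative log expression and unscaled library totals, no filter, DESeq2 1.42.0, a replicate block, fits of the compared groups alone and leaving out each library. The planned RefSeq exon lengths were replaced by GENCODE M21 exon unions, since RefSeq exons were not used here.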

Additional observations from a re-analysis of the deposited data

Results flagged for a closer look

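Of 66 groups of values checked for a library far from the rest of its group, 3 were flagged, and chance flags about 1 in 20 groups. Trgc2 was at 10.72 CPM in TfhA replicate 4, against 2.73 to 3.56 CPM in the other 3 TfhA libraries. Cd3d made up 26.65% of the CD3 chain counts in TfhA replicate 1, against 30.77% to 31.38% in the others. The 4 CD3 chain genes made up 0.2864% of the library in Tfh5 replicate 1, against 0.2462% to 0.2527% in the other Tfh5 libraries.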

How the results depend on the processing

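The counts of genes called over all genes and in the receptor machinery list stayed within 1.5 times the main count under each of the 20 alternatives. Leaving out 1 library at a time gave 7008 to 7633 genes for Tfh5 against TfhA, 5220 to 6146 for TfhA against Th1 and 8031 to 8633 for Tfh5 against Th1, where the main fit called 7520, 5852 and 8440. Same-numbered libraries of different groups did not deviate together (r from -0.048 to 0.155, over 0.1 in 1 of 13 pairs), so the replicate numbers are not taken as a pairing. A fit with the replicate number as a block called 7258, 5521 and 8285 genes, and 24 of the machinery genes as higher in Tfh5 over TfhA in place of 26. Of the fold changes of the 9 genes, 6 moved by more than the SD of the gene's log2 CPM within groups, which is not the SE of the fit. All 6 came on leaving out 1 library, and they concern Trgc1, Trgc2 and Trgc4 at few counts, as given above. Among the named genes, the calls lost in some alternatives were those of Ptprc in Tfh5 over TfhA and of Trbc1 and Ikzf3 in TfhA over Th1, and Etv5 in Tfh5 over TfhA, at an adjusted p of 0.0753 in the edgeR fit, ranged from 0.0226 to 0.248. Unscaled library totals moved the median log2 fold change of all genes from 0.026 to 0.082 in TfhA over Th1. At this depth, differences of the γ constant genes between Th1 and Tfh5 rest on 0 to 16 counts a library.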
